A study of Homo sapiens with 48 samples.

Results

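The MICAL genes encode a family of 3 actin oxidases, MICAL1 (ENSG00000135596), MICAL2 (ENSG00000133816) and MICAL3 (ENSG00000243156), which were taken by symbol from a table of 19847 gene entries, together with every exon and intron event listed for them in a splicing table. MICAL1 was singled out because its exons showed some of the deepest losses after RBM39 knockdown in these same libraries, so its siRBM39 values, of level and of splicing, are given as a description without a test. IMR90 human fetal lung fibroblasts carrying ER:RAS, a fusion of oncogenic RAS G12V with the oestrogen receptor domain that 4-hydroxy-tamoxifen (4OHT) switches on, were kept in 0.5% FBS with DMSO or 4OHT for 6 days. They were then transfected with a non-targeting siRNA (siNT1 or siNT2) or with an siRNA against SF3B1 (siSF3B1-13 or siSF3B1-16) or RBM39 (siRBM39-06 or siRBM39-08), and RNA was taken 2 days later, of which the polyadenylated part was sequenced. Both factors act in splicing, SF3B1 as the U2 snRNP subunit that holds the branch point and RBM39 as a partner of U2AF at the 3′ splice site. Each of the 6 groups, DMSO or 4OHT with siNT, siSF3B1 or siRBM39, held 8 libraries, 4 for each of 2 siRNAs, which makes 48 libraries in all. All 6 groups carried the same ER:RAS transgene, so DMSO cells are cells with the fusion not switched on, not cells without it. By the study's methods its in vitro replicates were experiments done independently, but the labels tie no library to a culture, and all are of 1 cell line, so p-values measure the spread between these libraries.

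MICAL proteins bind FAD and oxidise methionines of actin, which takes filaments apart, and methionine sulphoxide reductases of the MSRB family reverse that mark. A calponin homology domain and a LIM zinc finger follow the oxidase domain. In MICAL1 the C-terminal part binds Rab GTPases and holds the enzyme inactive until it is released. MICAL1 is known downstream of semaphorin and plexin receptors, and MICAL2 is known to act on nuclear actin, through which it raises SRF and MRTF target genes. In a fibroblast, where actin bundles carry contractile force, these enzymes take part in filament turnover.

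The libraries held between 31467221 and 52734636 gene counts. The targeted genes were lower in every library of their own groups: SF3B1 fell to 0.0914 of siNT in DMSO and to 0.0831 in 4OHT after siSF3B1, and RBM39 fell to 0.161 and 0.135 after siRBM39. Of the fibroblast markers, VIM lay between 2174 and 3268 cRPKM and COL1A1 between 449 and 4500 cRPKM. Others went lower, S100A4 to 3.86 cRPKM and LUM to 10.6 cRPKM in their lowest library. PTPRC was at most 0.04 cRPKM, and MYOD1 was listed at 0 throughout. Epithelial markers were mixed: CDH1 was at most 0.19 cRPKM and EPCAM at most 1.53 cRPKM, but KRT5 reached 13 cRPKM and KRT19 18.75 cRPKM. One library, 4OHT siRBM39-08 replicate 4, lay 0.668 from its group mean (root mean square over genes, log2 scale), the next farthest library 0.355, and values of the 4OHT siRBM39 group are therefore given also without it (RBM39 fell to 0.133 of siNT without it). In bulk RNA, fewer cells with a transcript and less of it per cell cannot be told apart.

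MICAL1 occupies chr6:109765265-109776975 on the minus strand of GRCh37, with 25 exons and 1067 codons in its reference transcript. Its introns are short, with a median of 240.5 nt and 16 of 24 under 300 nt, against a median of 1454 nt for MICAL2 and 1709 nt for MICAL3. MICAL2 lies on chromosome 11 (chr11:12132137-12285332, plus strand, 28 exons) and MICAL3 on chromosome 22 (chr22:18270415-18507327, minus strand, 32 exons). The 5 MICAL1 exons below had the largest differences of inclusion after siSF3B1 among the exons in either filter described with the splicing values. Each is shown 5′ to 3′ on its own strand in GRCh37, with the exon in capitals and, in lower case, the 23 intron bases before it and the 6 after it, so that the polypyrimidine stretch, the AG and the GT can be read.
MICAL1 exon 13, chr6:109769400-109769619, minus strand: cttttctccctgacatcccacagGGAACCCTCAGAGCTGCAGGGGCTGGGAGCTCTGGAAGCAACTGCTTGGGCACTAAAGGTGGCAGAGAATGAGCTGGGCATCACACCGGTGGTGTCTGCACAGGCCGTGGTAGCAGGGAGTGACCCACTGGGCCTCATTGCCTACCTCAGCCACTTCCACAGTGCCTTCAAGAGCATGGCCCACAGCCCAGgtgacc
MICAL1 exon 14, chr6:109769072-109769189, minus strand: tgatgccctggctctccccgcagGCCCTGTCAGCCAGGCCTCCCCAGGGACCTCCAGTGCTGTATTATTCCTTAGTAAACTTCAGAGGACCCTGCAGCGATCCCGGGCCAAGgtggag
MICAL1 exon 15, chr6:109768878-109768948, minus strand: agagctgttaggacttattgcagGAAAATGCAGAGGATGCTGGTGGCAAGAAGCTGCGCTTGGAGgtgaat
MICAL1 exon 16, chr6:109768554-109768666, minus strand: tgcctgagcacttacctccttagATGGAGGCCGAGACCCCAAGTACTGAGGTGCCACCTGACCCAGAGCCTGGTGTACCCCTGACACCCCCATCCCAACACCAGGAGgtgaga
MICAL1 99-nt exon, chr6:109773218-109773345, minus strand: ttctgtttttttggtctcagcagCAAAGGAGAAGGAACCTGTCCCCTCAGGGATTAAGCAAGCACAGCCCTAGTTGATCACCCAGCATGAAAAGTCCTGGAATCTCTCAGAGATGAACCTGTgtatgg
Exons 13 to 16 are consecutive coding exons covering codons 555 to 690, and the letter pattern of the LIM zinc finger follows directly, at codons 697 to 750 in exons 17 and 18. The FAD-binding letters G-x-G-x-x-G (x, any residue) lie far upstream, at codons 91 to 96 in exon 3. The exon of 99 nt is absent from the reference transcript and sits in the intron of 545 nt between exons 6 and 7. Without exon 13 the reading frame shifted and met a stop after 571 codons, and without exon 14 after 640 codons. Exons 15 (42 nt) and 16 (84 nt), by contrast, are multiples of 3, and their loss left 1053 and 1039 codons. Without all 4 exons the first stop came after 767 codons, and with the 99-nt exon an in-frame stop came after 293 codons. Exon 15 is shorter than each of the other 18 internal exons compared, which run from 74 to 301 nt, but in other features exons 13 to 16 lay within their range: upstream introns measured 152 to 338 nt against 93 to 1479 nt, and 9 to 16 of the last 20 intron bases were pyrimidines against 9 to 19.

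MICAL1 and MICAL2 transcripts were both abundant, at different levels in the 2 states of RAS, and MICAL3 was close to absent from the count table. Levels between genes are set side by side only as cRPKM, the authors' RPKM corrected for mappability. In DMSO siNT cells, MICAL1 stood at 26.9 to 38.9 cRPKM (median 36.5, 8 libraries) and MICAL2 at 18.1 to 21.9 cRPKM (median 19.5). In 4OHT siNT cells, MICAL1 stood at 27.2 to 30.03 cRPKM (median 28.4) and MICAL2 at 49.5 to 53.9 cRPKM (median 52.0). MICAL1 was thus above MICAL2 in every DMSO siNT library and MICAL2 above MICAL1 in every 4OHT siNT library. MICAL3 had 0 to 3 counts in each of the 48 libraries and at most 0.4 cRPKM, under the count minimum of the gene test. With all genes of at least 1 count admitted it passed in none of the 5 comparisons of 2 groups (edgeR adjusted p from 0.138 to 0.767, and 0 at an unadjusted p under 0.05). The splicing table did list reads on its junctions, so these counts may not measure its level, and the reason was not tested.

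**Figure D1:**
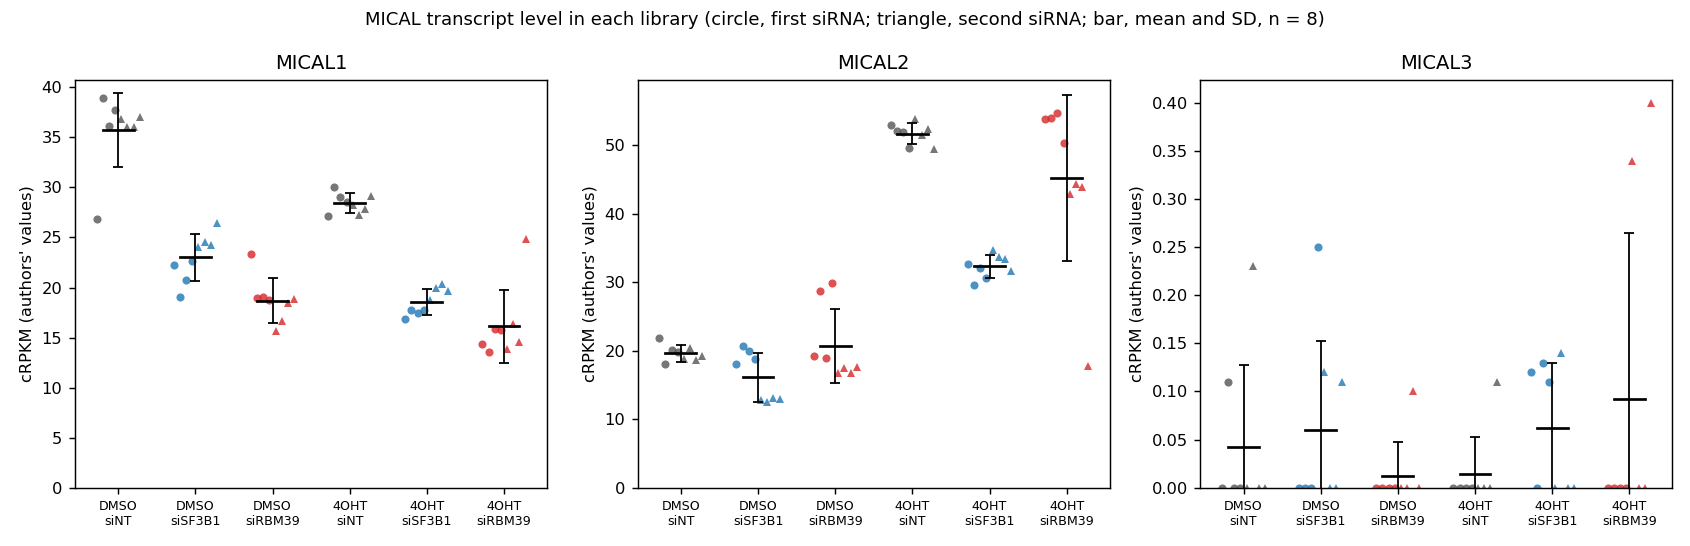
Level of MICAL1, MICAL2 and MICAL3 (y axis, cRPKM from 0, a separate scale for each gene) in each of the 48 libraries by group; circles are the siRNAs siNT1, siSF3B1-13 and siRBM39-06, triangles siNT2, siSF3B1-16 and siRBM39-08, and bars the mean with SD. MICAL1 sits below siNT after siSF3B1 in both treatments, MICAL2 stands higher in 4OHT siNT (49.5 to 53.9) than in DMSO siNT (18.1 to 21.9), and MICAL3 stays at or under 0.4.

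To ask how RAS activation alone affected the family, 4OHT was compared with DMSO in siNT cells. MICAL2 counts rose from 68.7 to 84.5 CPM (counts scaled to library size, median 74.2) in DMSO to 189 to 207 CPM (median 199) in 4OHT, with no overlap between groups. This was a 2.65-fold rise (log2 1.41, SE 0.14, adjusted p = 4.26e-13, edgeR quasi-likelihood test over 9991 genes). MICAL1 went the other way, from 96.7 to 138 CPM (median 130) in DMSO to 97.3 to 107 CPM (median 101.8) in 4OHT. It fell to 0.8002 of its DMSO level (log2 -0.32, SE 0.085, adjusted p = 6.77e-04), and the single DMSO library under 100, siNT1 replicate 1, put the groups in overlap. Without that library the log2 change of MICAL1 was -0.37 (adjusted p = 9.72e-05), and with siNT1 alone as the control it was -0.26 and no longer passed (adjusted p = 0.0730). Both tested members thus passed in this comparison, in which 78.1% of all genes did.

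SF3B1 knockdown lowered MICAL1 in both treatments. MICAL1 stood at 70.8 to 93.8 CPM (median 84.7) after siSF3B1 in DMSO, below all 8 siNT libraries. The fall was to 0.657 of siNT (log2 -0.61, SE 0.085, adjusted p = 2.09e-08). In 4OHT, MICAL1 stood at 64.7 to 75.8 CPM (median 68.9) after siSF3B1, again with no overlap, and fell to 0.691 of siNT (log2 -0.53, SE 0.085, adjusted p = 2.79e-07). The SF3B1 effect on MICAL1 was not detectably different between 4OHT and DMSO (log2 difference 0.07, SE 0.12, adjusted p = 0.687).

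MICAL2 fell after siSF3B1 in 4OHT but did not pass in DMSO. In 4OHT it stood at 121 to 139 CPM (median 133) against 189 to 207 CPM in siNT, a fall to 0.660 of siNT without overlap (log2 -0.60, SE 0.13, adjusted p = 8.26e-05). In DMSO it stood at 47.8 to 82.3 CPM (median 60.8) after siSF3B1, with a log2 change of -0.25 (SE 0.13, adjusted p = 0.0901). The 2 SF3B1 siRNAs were apart in DMSO, with a mean of 76.8 CPM for siSF3B1-13, close to the 74.2 CPM median of siNT, and 49.1 CPM for siSF3B1-16. Taken alone, siSF3B1-13 gave a log2 change of 0.04 (adjusted p = 0.812) and siSF3B1-16 one of -0.62 (adjusted p = 7.66e-04), so the DMSO value is an average over unlike siRNAs. In 4OHT the 2 siRNAs gave 129 and 133 CPM. The difference of the SF3B1 effect between treatments did not pass for MICAL2 (log2 -0.35, SE 0.19, adjusted p = 0.142). Without the 4OHT siRBM39-08 replicate 4 library the DMSO value (log2 -0.25, adjusted p = 0.0275) and this difference (log2 -0.35, adjusted p = 0.0440) both passed. That library belongs to neither comparison, and without it 78.17% and 46.96% of all genes passed in them. With all 48 libraries, 1 of 2 tested members passed in DMSO and both in 4OHT, beside 72.7% and 77% of all genes. Neither passed for the difference, beside 37.8%.

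After siRBM39, MICAL1 stood at 56.4 to 81.6 CPM (median 65.5) in DMSO and at 50.1 to 97.1 CPM (median 54.5) in 4OHT. These are 0.519 and 0.586 of the siNT level (log2 -0.95 and -0.77), and without the 4OHT siRBM39-08 replicate 4 library, which is the 97.1 CPM value, the 4OHT log2 value was -0.91. MICAL2, which was not chosen on these values, did not pass in DMSO (63.5 to 111 CPM, median 68.7; log2 0.06, SE 0.13, adjusted p = 0.742) or in 4OHT (74.3 to 214 CPM, median 183; log2 -0.16, SE 0.13, adjusted p = 0.298). Its siRNAs again lay apart, with means of 90.3 CPM for siRBM39-06 and 65.6 CPM for siRBM39-08 in DMSO and of 207 and 146 CPM in 4OHT. Each taken alone, the log2 values in DMSO were 0.27 (adjusted p = 0.0365) and -0.19 (adjusted p = 0.311), and in 4OHT 0.07 (adjusted p = 0.614) and -0.45 (adjusted p = 7.54e-03). In DMSO the gap between siRNAs rested on siRBM39-06 replicates 2 and 4, at 107 and 111 CPM. Replicates 1 and 3 of that siRNA stood at 72.1 and 70.3 CPM, and the siRBM39-08 libraries at 63.5 to 67.1 CPM. The 74.3 CPM value was that of 4OHT siRBM39-08 replicate 4, and the other 3 libraries of that siRNA stood at 169 to 172 CPM. Without it the 4OHT log2 value was -0.05 (adjusted p = 0.709), and that of siRBM39-08 alone was -0.22 and no longer passed (adjusted p = 0.0816). The share of all genes that passed was 46.1% in DMSO and 56.4% in 4OHT, and for the difference between treatments, which MICAL2 did not pass (log2 -0.22, SE 0.19, adjusted p = 0.494), it was 14.1%. Without the same library that difference was -0.11 (adjusted p = 0.628), beside 25.01% of all genes, and 60.18% of all genes passed for siRBM39 in 4OHT. The siSF3B1 and siRBM39 comparisons share their siNT libraries and are not independent of each other.

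Splicing was measured as PSI, the percentage of transcripts with informative junction reads that include an exon or retain an intron. As polyadenylated RNA was sequenced, PSI counts the transcripts present at harvest, and forms that are rapidly degraded or carry no poly(A) tail are under-represented in it. The table listed 26 cassette exons and 23 introns of MICAL1, 28 and 27 of MICAL2, and 13 and 20 of MICAL3. Of these, 7 exons and 7 introns of MICAL1, 5 exons and 4 introns of MICAL2 and no event of MICAL3 had enough reads in every library and a PSI range of at least 5 points, and, for introns, balanced reads at both ends. Events past an adjusted p of 0.05 (limma on logit PSI) were called where group means lay at least 5 points apart. Neighbouring exons share junction reads, so their values are not independent.

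After SF3B1 knockdown, 5 of the 7 tested MICAL1 exons were called in DMSO and 5 in 4OHT, all lower: exons 10, 13, 15, 16 and 17. Over all 7673 tested exons, 26.8% were called in DMSO (1975 lower and 80 higher) and 30% in 4OHT (2225 lower and 80 higher). The median change of the 7 exons was -14.1 points in DMSO and -15.7 points in 4OHT, beside -1.84 and -2.20 points over all tested exons. MICAL1 was picked on exon losses after siRBM39 against the same siNT libraries, so these medians are not those of an unselected gene. Exon 13 (191 nt) was included at 83.0 to 94.8% (median 90.2) in DMSO siNT and at 29.04 to 43.9% (median 37.9) after siSF3B1, which was 52.6 points lower (mean 89.7 ± 3.69 against 37.1 ± 6.68, SD, n = 8; limma adjusted p = 8.40e-10). In 4OHT exon 13 was included at 76.5 to 100% (median 89.9) in siNT and at 27.98 to 37.1% (median 30.9) after siSF3B1, 56.4 points lower (adjusted p = 2.65e-11). Groups did not overlap in either treatment, and each siRNA gave the shift, with means of 33.5% for siSF3B1-13 and 40.8% for siSF3B1-16 in DMSO.

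Exon 15, the 42-nt exon, went from 91.1 to 98.5% (median 93.9) in DMSO siNT to 43.6 to 62.6% (median 56.0) after siSF3B1, 40.9 points lower (limma adjusted p = 1.43e-13), and in 4OHT from 84.5 to 97.5% to 38 to 64.2%, 41.96 points lower (adjusted p = 4.04e-13). Exon 16 went from 89.98 to 98.5% (median 94.8) to 59.3 to 74.98% (median 66.1) in DMSO, 27.6 points lower (adjusted p = 6.60e-09), and was 27.3 points lower in 4OHT (adjusted p = 7.89e-10). The shift was thus largest at exon 13 among the tested exons and smaller in turn at exons 15, 16 and 17, although differences between exons were not tested: exon 17, which begins the LIM zinc finger, was 11.7 points lower in DMSO (adjusted p = 1.66e-07) and 10.9 points lower in 4OHT (adjusted p = 1.48e-08). Exon 10, at codons 436 to 478, was 14.1 points lower in DMSO (adjusted p = 8.36e-08) and 15.7 points lower in 4OHT (adjusted p = 8.05e-07). For exon 10 the groups overlapped in 4OHT, where 1 siSF3B1 library reached 96.5%. The other 2 tested exons, 20 and 22, were at 89.5% or above in every library, and exons 5, 6, 18, 19, 21, 23 and 24, which had enough reads but did not vary, were at 100%. Since an exon entered the test only if its PSI varied, the counts and medians describe the exons tested and not all exons of the gene.

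The SF3B1 effect on exon 13 was not detectably different between treatments (difference -3.81 points, SE 7.31, limma adjusted p = 0.806), nor on exon 15 (-1.07 points, SE 6.30, adjusted p = 0.934) or exon 16 (0.36 points, SE 5.44, adjusted p = 0.902). A difference larger than these standard errors could have gone unseen. They are on the PSI scale, while the test was on the logit scale.

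**Figure D2:**
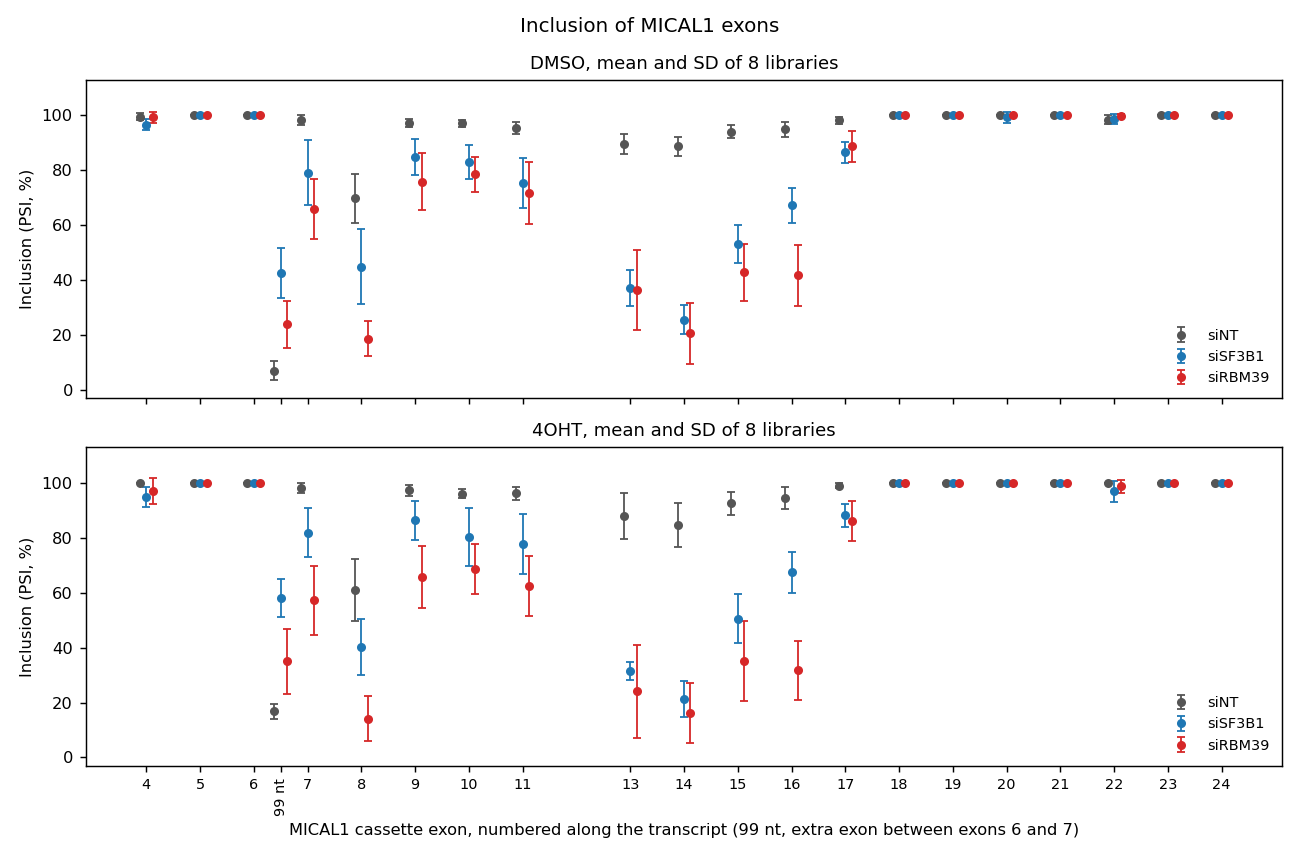
Mean PSI with SD (y axis, percent, 8 libraries) of MICAL1 exons in transcript order (x axis) in DMSO and in 4OHT, for siNT in grey, siSF3B1 in blue and siRBM39 in red. Left out are exons with too few reads in over 4 libraries and, apart from the 99-nt exon, exons not matched to a numbered exon of the reference transcript. Exons 7 to 11 and 13 to 17 lie below siNT after both knockdowns, the 99-nt exon lies above it, and exons 5, 6, 18, 19, 21, 23 and 24 stay at 100%.

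Exon 14 and the 99-nt exon each missed the read minimum in 1 library and so entered only a wider filter, chosen after the data were seen, that allowed 2 such libraries. Exon 14 had the most negative difference of them after siSF3B1: it was included at 83.4 to 92.5% (median 89.3) in DMSO siNT and at 19.6 to 35.2% (median 24.8) after siSF3B1, 63.1 points lower (limma adjusted p = 2.45e-13), and 63.4 points lower in 4OHT (adjusted p = 1.99e-13). Of the MICAL1 exons in either filter, the 99-nt exon alone was called higher: it was included at 4.22 to 14.9% (median 5.81) in DMSO siNT and at 30.1 to 56.8% (median 42.4) after siSF3B1, 35.6 points higher (adjusted p = 4.69e-13), and in 4OHT at 12.7 to 20.4% (median 17.4) and 46.7 to 71.2% (median 57.4), 41.2 points higher (adjusted p = 4.78e-11). The exons just downstream of it were lower, with exon 7 at -19.1 and -16.2 points, exon 8 at -25.0 and -20.8 points and exon 9 at -12.4 and -10.9 points in DMSO and 4OHT. Their adjusted p ran from 2.10e-08 to 2.84e-03.

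No tested MICAL1 exon passed for RAS activation alone. In siNT cells 0 of 7 MICAL1 exons were called between 4OHT and DMSO (limma; 0 at an unadjusted p under 0.05), beside 1.60% of all tested exons, and their differences ran from -1.71 points (exon 13) to 1.51 points (exon 22). In the wider filter the 99-nt exon was called, 9.77 points higher in 4OHT than in DMSO (adjusted p = 2.87e-03), with groups that overlap only through 1 DMSO library at 14.9%.

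After RBM39 knockdown the same 5 exons, 10, 13, 15, 16 and 17, lay lower by at least 5 points, as the choice of MICAL1 implied. The call rule, on which nothing is rested here, was met by 8.26% of all tested exons in DMSO and 9.34% in 4OHT. Exon 13 was included at 24.02 to 67.3% (median 30.8) in DMSO and at 8.91 to 61.4% (median 20.5) in 4OHT, which is 53.4 and 64.0 points below siNT. Exon 16 was included at 25.7 to 59.7% (median 40.6) and at 18.2 to 48.4% (median 28.9), which is 53.1 and 62.8 points below siNT. Exon 15 was included at 31.6 to 62.1% (median 40.2) and at 22.5 to 67.7% (median 31.96), which is 51.2 and 57.4 points below siNT. Without 4OHT siRBM39-08 replicate 4 the 4OHT differences of exons 13, 16 and 15 were -61.8, -60.9 and -55.6 points. Over all 48 libraries, among 7673 exons ordered from the most negative difference, exons 13, 16 and 15 stood at places 3, 4 and 5 in DMSO and at places 1, 2 and 5 in 4OHT. No library of these 3 exons after siRBM39 reached the lowest siNT library of its treatment.

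Exon 14 was included at 9.88 to 42.3% (median 16.0) after siRBM39 in DMSO and at 1.60 to 38.6% (median 12.9) in 4OHT. Exon 8 stood at 18.6 ± 6.40% after siRBM39 against 44.8 ± 13.7% after siSF3B1 and 69.8 ± 8.94% in siNT (DMSO, SD, n = 8), and 14.2 ± 8.23% against 40.2 ± 10.3% and 61.1 ± 11.4% in 4OHT. The 99-nt exon stood at 23.9 ± 8.47% in DMSO and 35.03 ± 11.8% in 4OHT, between siNT and siSF3B1. Without 4OHT siRBM39-08 replicate 4 the 4OHT means after siRBM39 were 16.8% for exon 14, 15.2% for exon 8 and 37.6% for the 99-nt exon. These differences between the 2 knockdowns were not tested.

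The 2 RBM39 siRNAs differed in depth of the change. Exon 13 averaged 45.998% with siRBM39-06 and 26.6% with siRBM39-08 in DMSO, and 31.7% and 16.4% in 4OHT, and exon 16 averaged 49.6% and 34.03% in DMSO and 37.9% and 25.8% in 4OHT, where siRBM39-08 without its replicate 4 averaged 18.8% for exon 13 and 28.3% for exon 16. Both siRNAs lay far below the siNT means of 86.6 to 90.5% for exon 13 and 93.8 to 95.5% for exon 16. The siRBM39-06 library with the highest inclusion in 4OHT was replicate 2, at 61.4% for exon 13 and 67.7% for exon 15.

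**Figure D3:**
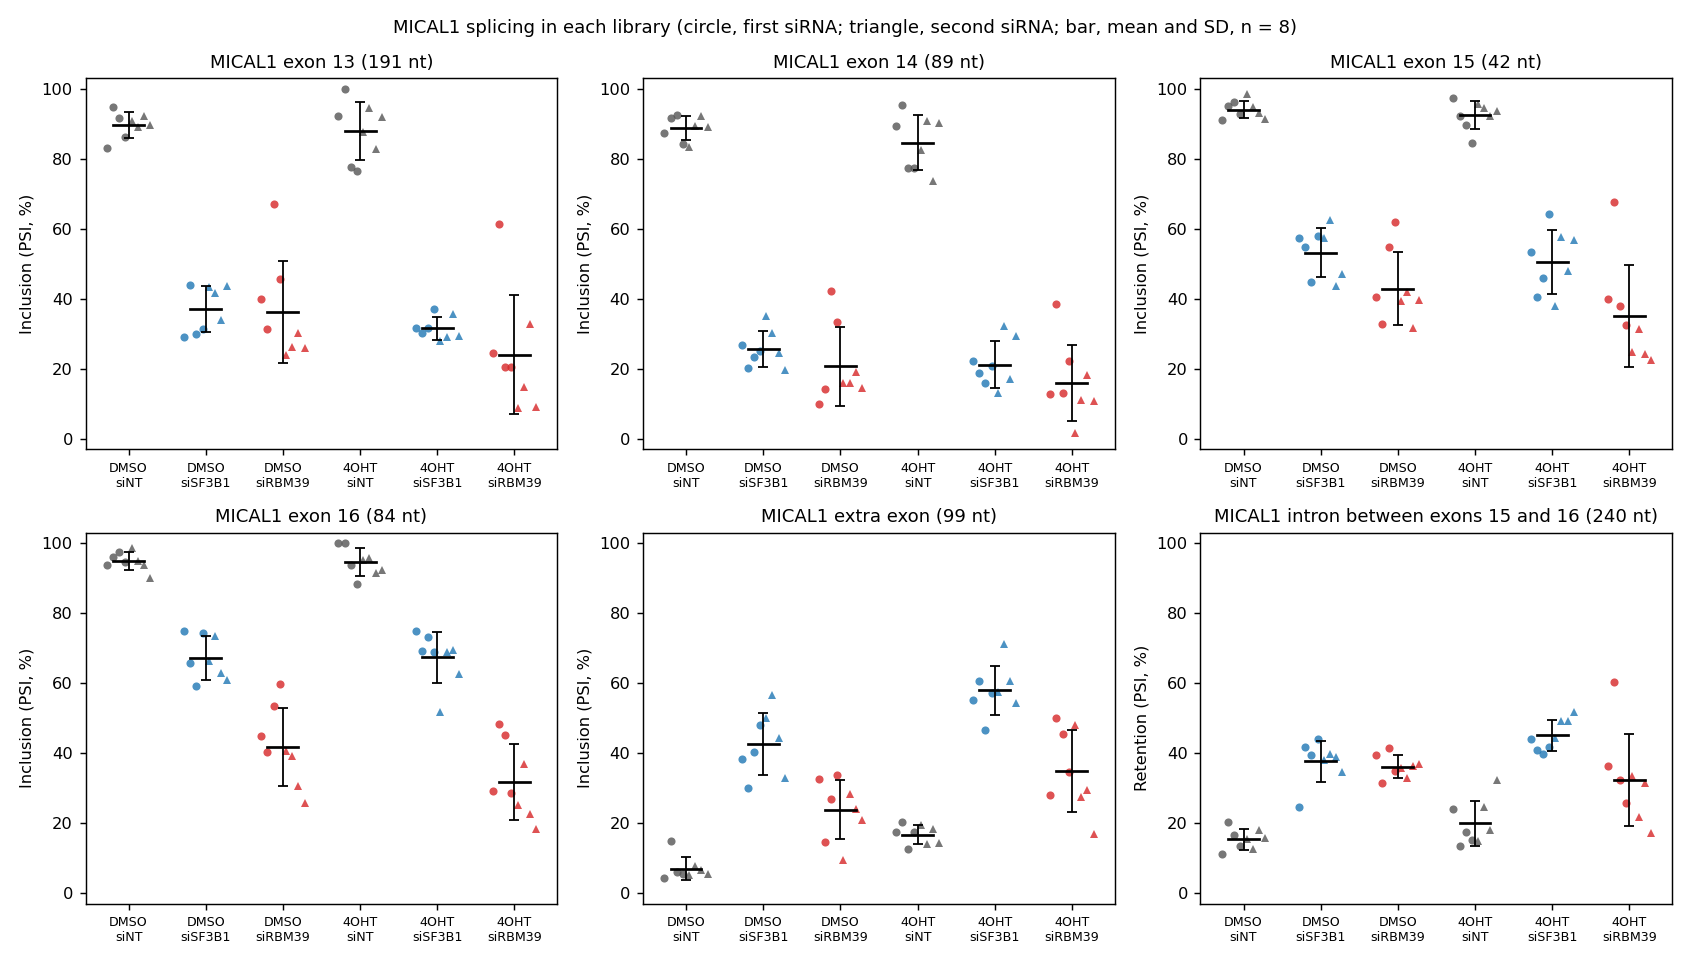
PSI in each library (y axis, percent) by group for MICAL1 exons 13, 14, 15 and 16, the 99-nt exon and the intron of 240 nt between exons 15 and 16; circles and triangles are the 2 siRNAs of a target, and bars the mean with SD (n = 8). Exons 13 to 16 fall below every siNT library after both knockdowns, while the 99-nt exon and the intron stand higher.

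Of the 7 tested MICAL1 introns, 1 was called after siSF3B1 in DMSO and 1 in 4OHT. That count is near the share of all 5248 tested introns, which was 11.1% and 14.9%. The same intron was called in both treatments. This was the intron of 240 nt between exons 15 and 16, retained at 11.1 to 20.5% (median 15.6) in DMSO siNT and at 24.6 to 44.02% (median 39.3) after siSF3B1, 22.2 points higher (limma adjusted p = 1.11e-06). In 4OHT it was retained at 13.4 to 32.4% (median 17.8) in siNT and 39.7 to 51.8% (median 44.2) after siSF3B1, 25.1 points higher (adjusted p = 4.28e-07). The groups did not overlap in either treatment. After siRBM39 it was retained at 31.5 to 41.5% in DMSO and 17.1 to 60.4% in 4OHT, 20.7 and 12.3 points above siNT, or 14.5 points in 4OHT without siRBM39-08 replicate 4. The intron of 127 nt between exons 16 and 17 stood 12.2 and 9.81 points above siNT after siRBM39 (10.2 points in 4OHT without that library), but after siSF3B1 it differed by -0.20 points in DMSO (adjusted p = 1.00) and 1.04 points in 4OHT (adjusted p = 0.370). The 109-nt intron between exons 5 and 6 was 6.90 points higher after siRBM39 in DMSO. With it, 3 introns met the call rule after siRBM39 in DMSO and 2 in 4OHT. Of all tested introns 2.06% and 2.08% met it. MICAL1 was chosen on its siRBM39 splicing, so nothing is rested on these intron counts. Between 4OHT and DMSO in siNT cells 0 of 7 were called (limma; 0 at an unadjusted p under 0.05), beside 0.0953% of all tested introns.

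Other MICAL1 introns had reads in every library but unbalanced counts at their ends, and are given as values. The 545-nt intron that holds the 99-nt exon was retained at a mean of 43.9% in DMSO siNT, 70.9% after siSF3B1 and 71.2% after siRBM39, and at 48.8%, 76.1% and 71.4% in 4OHT. The 175-nt intron between exons 10 and 11 was retained at 9.71%, 44.02% and 38.9% in DMSO and at 9.84%, 54.8% and 46.4% in 4OHT. The 647-nt intron between exons 4 and 5 differed from these in pattern, with 8.70% in DMSO siNT, 7.29% after siSF3B1 and 30.3% after siRBM39, and with 10.1%, 10.6% and 39.8% in 4OHT. Without 4OHT siRBM39-08 replicate 4 the 4OHT siRBM39 means of these 3 introns were 74.7%, 46.04% and 41.3%.

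The MICAL2 calls rested on 1 exon. One of its 5 tested exons was called after siSF3B1 in DMSO, 1 in 4OHT, and 1 after siRBM39 in 4OHT, and it was the same exon each time: exon 6 (102 nt, codons 197 to 231), which codes for part of the oxidase domain. Of all tested exons 26.8%, 30% and 9.34% were called in these comparisons, so 1 of 5 is not above the share of all exons after siSF3B1. After siRBM39 in DMSO 0 of 5 were called (limma; 1 at an unadjusted p under 0.05), as between 4OHT and DMSO in siNT cells (0 at an unadjusted p under 0.05). Its counterpart in the other members, by order of coding exons, is exon 5 of MICAL1 and of MICAL3. The 3 are shown in GRCh37, with the exon in capitals, so that the copies can be compared: MICAL2 and MICAL3 share 75.7% of aligned bases, MICAL1 and MICAL2 55.2%, and MICAL1 and MICAL3 59.0%.
MICAL1 exon 5, chr6:109773708-109773841, minus strand: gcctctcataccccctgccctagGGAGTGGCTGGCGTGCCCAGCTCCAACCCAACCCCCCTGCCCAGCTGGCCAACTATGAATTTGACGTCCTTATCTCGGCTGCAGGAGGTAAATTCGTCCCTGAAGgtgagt
MICAL2 exon 6, chr11:12231021-12231151, plus strand: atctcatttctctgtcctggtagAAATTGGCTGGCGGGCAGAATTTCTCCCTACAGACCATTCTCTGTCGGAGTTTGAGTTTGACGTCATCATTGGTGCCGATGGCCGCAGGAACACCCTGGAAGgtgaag
MICAL3 exon 5, chr22:18384638-18384768, minus strand: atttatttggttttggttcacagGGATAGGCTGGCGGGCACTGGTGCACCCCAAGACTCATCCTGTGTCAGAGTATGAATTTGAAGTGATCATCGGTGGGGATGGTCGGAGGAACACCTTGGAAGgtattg
MICAL2 exon 6 was included at 95.8 to 100% (median 100) in DMSO siNT and at 76.0 to 100% (median 83.4) after siSF3B1, 13.4 points lower (limma adjusted p = 5.27e-05), with 21 to 64 reads a library. In 4OHT it was included at 97.4 to 100% (median 100) in siNT and at 61.5 to 82.1% (median 74.3) after siSF3B1, 26.4 points lower (adjusted p = 4.04e-09) and with no overlap. The difference between the 4OHT and DMSO changes was -12.99 points (SE 4.15 on the PSI scale). It did not pass on the logit scale, the scale of the test (limma adjusted p = 0.394). Of the 5 tested MICAL2 exons, 1 had an unadjusted p under 0.05 for this difference. Means by siRNA in DMSO were 80.0% for siSF3B1-13 and 92.2% for siSF3B1-16, and the call was lost with siSF3B1-16 alone (-7.31 points, adjusted p = 0.0599). After siRBM39 exon 6 was at 87.2 to 100% (median 93.0) in 4OHT, 6.11 points lower (adjusted p = 4.61e-03; without siRBM39-08 replicate 4, 7.03 points lower, adjusted p = 9.24e-04), and at 80.7 to 100% (median 100) in DMSO, 2.47 points lower (adjusted p = 0.781). The 4OHT siRBM39 call was lost without replicate 3 (-4.87 points, adjusted p = 0.126).

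MICAL3 exon 5 had only 5 to 24 reads a library and was not tested. It was included at 100% in all 16 siNT libraries and at 66.7 to 92.0% (median 78.9) after siSF3B1 in DMSO and 33.3 to 100% (median 68.5) in 4OHT. After siRBM39 it stood at 84.6 to 100% in DMSO and 100% in 4OHT. MICAL1 exon 5 was included at 100% in all 48 libraries.

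**Figure D4:**
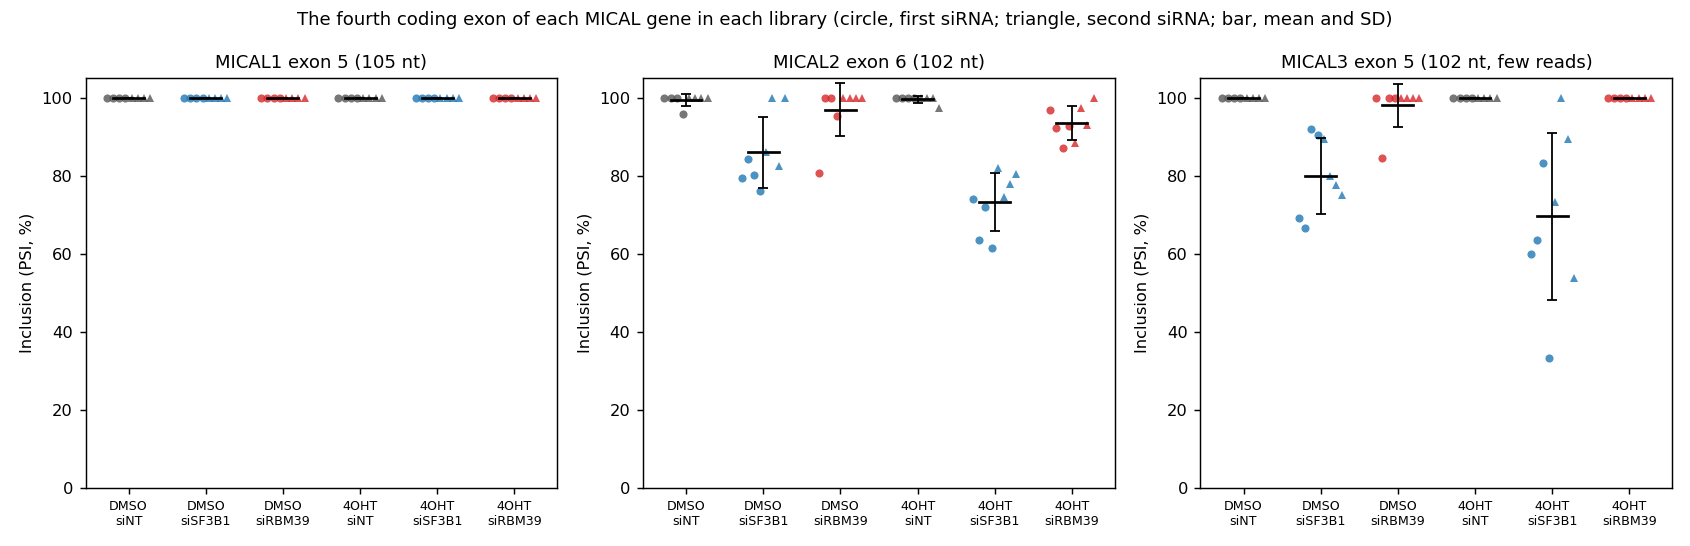
PSI (y axis, percent) of the corresponding exon of MICAL1, MICAL2 and MICAL3 in each library by group, with circles and triangles for the 2 siRNAs of a target and bars for the mean with SD (n = 8). MICAL1 stays at 100%, while MICAL2 and MICAL3 fall below siNT after siSF3B1, to medians of 74.3% and 68.5% in 4OHT.

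In the wider filter, MICAL2 exon 11 (127 nt) differed by -8.48 points after siSF3B1 in 4OHT (limma adjusted p = 1.29e-10) and by -2.83 points in DMSO, under the 5-point minimum. Exon 16 (69 nt) was 9.31 points lower after siSF3B1 in DMSO (limma adjusted p = 9.56e-08) and 7.04 points lower in 4OHT (adjusted p = 3.51e-06). Exon 22 (63 nt) was the one MICAL2 exon in either filter near even use. It was included at 39.3 to 57.4% (median 52.6) in DMSO siNT and 41.5 to 58.6% (median 49.0) in 4OHT siNT. It was 13.97 points lower after siSF3B1 in 4OHT (adjusted p = 9.71e-03) and 4.32 points lower in DMSO (adjusted p = 0.442). None of the 4 tested MICAL2 introns was called in any comparison (limma; at an unadjusted p under 0.05, 1 and 2 introns after siSF3B1 in DMSO and 4OHT, 0 and 1 after siRBM39, and 0 between 4OHT and DMSO). In the wider filter the 3881-nt intron between exons 8 and 9 stood out: it was retained at 0.00 to 6.67% (median 2.30) in DMSO siNT and 21.7 to 42.9% (median 25.5) after siSF3B1, 24.5 points higher (adjusted p = 3.06e-08). In 4OHT it went from 0.87 to 5.56% (median 2.82) to 31.7 to 51.6% (median 45.4), 42.1 points higher (adjusted p = 1.03e-10). The difference between the 4OHT and DMSO changes was 17.6 points (SE 3.49 on the PSI scale), which did not pass on the logit scale (limma adjusted p = 0.784). After siRBM39 this intron differed by 1.38 points in DMSO (adjusted p = 0.921) and 2.17 points in 4OHT (adjusted p = 0.804), or 2.45 points there without siRBM39-08 replicate 4.

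MICAL1 exon 8 and MICAL2 exon 9 are both 258 nt long and share 64.8% of their bases. MICAL1 exon 8 was used incompletely in siNT cells (51.3 to 79.3% in DMSO) and lost inclusion after both knockdowns, whereas MICAL2 exon 9 varied by 2.20 points over all 48 libraries.

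The genes that act with MICAL proteins were followed as a list of 37, chosen from general knowledge with earlier results of these data known: MICAL-like proteins, MSRB reductases, NEDD9 and STK38 kinases, plexins, neuropilins, semaphorins, the CRMPs DPYSL2 and DPYSL3, Rab GTPases, and actins. In 4OHT against DMSO, 11 of the 33 tested rose, 11 fell and 11 did not pass, with a median log2 change of 0.09 beside 0.00 over all genes, of which 38.96% rose and 39.1% fell, so each direction held a smaller share of the list than of all genes. NEDD9, a CAS scaffold at focal adhesions that binds MICAL1, fell to 0.2502 of its DMSO level (log2 -1.999, SE 0.10, edgeR adjusted p = 7.24e-24). The CRMPs, collapsin response mediators of semaphorin signalling, fell together, DPYSL3 to 0.353 and DPYSL2 to 0.516, and MSRB2, a methionine sulphoxide reductase of mitochondria, fell to 0.639. 

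After siSF3B1, 9 of the 33 rose and 13 fell in DMSO, and 13 rose and 12 fell in 4OHT, with median log2 changes of 0.02 and 0.03, beside 0.02 and 0.03 over all genes, of which 36.51% rose and 36.23% fell in DMSO and 39.45% rose and 37.58% fell in 4OHT. ACTB, cytoplasmic beta-actin, rose 1.53-fold in DMSO (log2 0.61, adjusted p = 2.72e-13), and PAK1, a Rac and Cdc42 effector kinase, fell to 0.728 in DMSO and 0.590 in 4OHT. SEMA3F, a secreted semaphorin that signals through NRP2 and plexin A, rose 1.73-fold in 4OHT (adjusted p = 2.37e-11). After siRBM39, 8 rose and 9 fell in DMSO and 13 rose and 8 fell in 4OHT, with median log2 changes of 0.01 and 0.06 beside 0.02 and 0.05 over all genes, of which 23.89% rose and 22.2% fell in DMSO and 32.19% rose and 24.25% fell in 4OHT. Without 4OHT siRBM39-08 replicate 4, 13 rose and 6 fell in 4OHT. SEMA3C fell to 0.556 in DMSO (adjusted p = 3.08e-07).

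MICALCL, a MICAL C-terminal-like protein without the oxidase domain, had too few counts for the gene test. It had 7 to 23 counts in DMSO siNT libraries and 74 to 130 in 4OHT siNT libraries, so that all 4OHT libraries lay higher. With all genes of at least 1 count admitted, it was higher in 4OHT (log2 2.74, SE 0.24, edgeR adjusted p = 1.18e-14) and lower after siSF3B1 in DMSO (log2 -1.56, adjusted p = 1.86e-04) and in 4OHT (log2 -1.89, adjusted p = 2.51e-10). After siRBM39 the log2 change in DMSO was -0.54 and did not pass (edgeR adjusted p = 0.177). In 4OHT it was -0.55 and passed (edgeR adjusted p = 0.0247). The library 4OHT siRBM39-08 replicate 4 had the lowest count of that group, 25, and MICALCL was not fitted without it.

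SRF and its MRTF cofactors drive the actin and contractile genes on which nuclear MICAL2 is known to act, and 25 of them formed a second list of the same kind. In 4OHT, 21 of the 25 fell, 2 rose and 2 did not pass, with a median log2 change of -0.76 beside 0.00 over all genes, of which 39.1% fell, while MICAL2 rose. LMOD1, a leiomodin that nucleates actin filaments in smooth muscle, fell to 0.0198 of its DMSO level, TAGLN (transgelin) to 0.103, ACTG2 (smooth muscle gamma-actin) to 0.110 and CNN1 (calponin) to 0.127. SRF itself (log2 0.43, adjusted p = 6.06e-07) and FILIP1L rose, and ZYX and TPM1 did not pass, 4 genes that are named here after their values were seen.

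**Figure D5:**
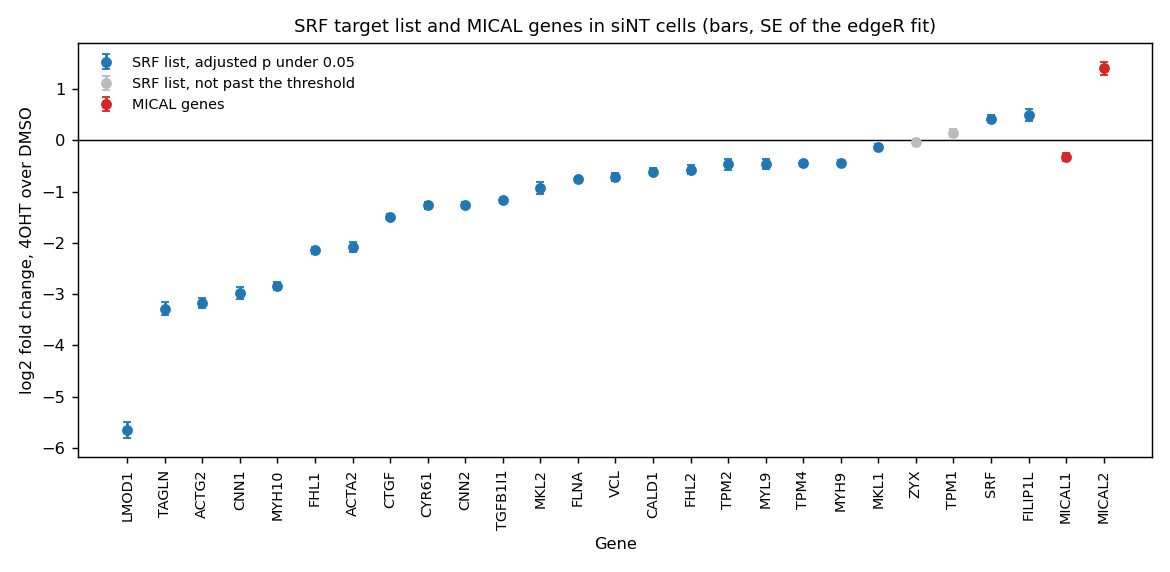
Log2 fold change with its SE (y axis, 4OHT over DMSO in siNT cells, edgeR) of the 25 SRF and MRTF genes and of MICAL1 and MICAL2 (x axis); blue points passed at an adjusted p under 0.05, grey points did not, and red points are the MICAL genes. All but 4 of the list lie below 0 and past the threshold, MICAL1 is at -0.32 and MICAL2 at 1.41.

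After siSF3B1 the same list split, with 9 higher and 7 lower in DMSO and 5 higher and 8 lower in 4OHT, a smaller share in all than the 72.7% and 77% of all genes that passed, and its median log2 change was 0.02 and -0.02 beside 0.02 and 0.03 over all genes. MYH10, non-muscle myosin IIB, fell to 0.285 in DMSO and 0.324 in 4OHT, whereas CTGF, a secreted matrix-associated protein, rose 1.93-fold and 2.42-fold. After siRBM39, 7 were higher and 3 lower in DMSO and 11 higher and 4 lower in 4OHT, where ACTG2 rose 2.02-fold (adjusted p = 2.47e-13) and CNN1 1.80-fold (adjusted p = 1.27e-07). Of all genes 46.1% and 56.4% passed, and the median log2 change of the list was 0.04 and 0.11 beside 0.02 and 0.05. Without 4OHT siRBM39-08 replicate 4, 12 were higher and 4 lower in 4OHT, ACTG2 rose 1.87-fold and CNN1 1.59-fold.

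Over the 48 libraries, the tested genes whose log2 CPM ran most like MICAL1 were ILK (Pearson r = 0.933), FOXRED1 (0.930) and SLC38A6 (0.922), and for MICAL2 TMEM49 (0.961), FBXL18 (0.958) and POC1B (0.956). These values describe 48 points that fall in 6 groups and share library preparation, and say nothing of common control.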

How the data were processed

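The data were mRNA-capture (poly(A)-selected) libraries, 48 in 6 groups of 8. The authors ran vast-tools, version 2, and deposited raw read counts and cRPKM (RPKM corrected for mappability) per gene, and PSI in percent per splicing event with read support. Per the labels the build was hg19, but the deposited event coordinates followed a later build, so the events were matched to GRCh37 (GENCODE 44) by exon and intron lengths (60 of 67 exons, 66 of 70 introns), and only GRCh37 positions are printed. Groups came from the sample titles; 4 libraries of 4OHT siNT2 carried siNT1 in another label, which leaves the siNT group as it is.

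Genes with at least 10000 counts in total were fitted with edgeR 4.0.16 (TMM, quasi-likelihood, 6 group means). PSI was fitted as a logit with limma 3.58.1 in R 4.3.3, over 7673 exons and 5248 introns, with Benjamini-Hochberg adjustment. Alternatives used DESeq2 1.42.0 and limma-voom, other filters and single siRNAs. Scripts were tested on simulated data. The members, the partner and SRF lists and the rule for named events (those called, by size of difference, and at most 4 genes per list and comparison by fold change) were chosen with earlier results of these data known. A deposited CPM table was not used.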

Additional observations from a re-analysis of the deposited data

Results flagged for a closer look

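In all, 10 values lay far from the other 7 libraries of their group (Dixon's test at the 95% level, 10 of 66 groups tested). Chance marks about 1 group in 20 where groups are independent and normally spread, but these groups share libraries. Where 7 libraries stand at 100%, any lower value is marked. The 10 of 66 is therefore not set against 1 in 20. The causes of the 10 values were not tested. The library 4OHT siRBM39-08 replicate 4 was the highest of its group for MICAL1 (97.1 CPM) and the lowest for MICAL2 (74.3 CPM). MICAL1 was lowest in DMSO siNT1 replicate 1 (96.7 CPM) and highest in DMSO siRBM39-06 replicate 1 (81.6 CPM). The library 4OHT siRBM39-06 replicate 2 had the highest PSI of its group at MICAL1 exon 15 (67.7%), exon 13 (61.4%) and the 240-nt intron between exons 15 and 16 (60.4%). MICAL2 exon 6 was lowest in DMSO siRBM39-06 replicate 1 (80.7%), and in DMSO siNT1 replicate 4 (95.8%) and 4OHT siNT2 replicate 4 (97.4%), where the other 7 libraries stood at 100%.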

How the results depend on the processing

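The MICAL1 falls after siSF3B1 and the MICAL2 rise with 4OHT kept their direction and call in every alternative run. MICAL2 depended on the siRNA and, after siRBM39, on single libraries as well. Its siSF3B1 change in DMSO (log2 -0.25) was 0.045 with siSF3B1-13 alone, from -0.28 to -0.22 when replicates were left out, and it passed with siSF3B1-16 alone (-0.62), with only the groups compared (-0.26), with 1 group per siRNA (-0.28) and without 4OHT siRBM39-08 replicate 4 (-0.25). The difference of that effect between treatments (-0.35; -0.43 to -0.31 when replicates were left out) was 0.014 with siSF3B1-16 alone, and passed with siSF3B1-13 alone (-0.70), with only the groups compared (-0.35) and without 4OHT siRBM39-08 replicate 4 (-0.35). The siRBM39 change of MICAL2 in DMSO was 0.27 with siRBM39-06 alone and passed, -0.19 with siRBM39-08 alone, -0.15 without DMSO siRBM39-06 replicates 2 and 4 (an alternative chosen after the data were seen), and from -0.019 (without replicate 4) to 0.14 when replicates were left out, at -0.0089 without replicate 2. In 4OHT it was 0.068 with siRBM39-06 alone and -0.45 with siRBM39-08 alone, which passed, but -0.22 and not passing with siRBM39-08 alone without its 4OHT replicate 4, an alternative chosen after the data were seen, which gave -0.19 in DMSO. The MICAL1 fall with 4OHT was lost with siNT1 alone (-0.26), and the difference of its siRBM39 value between treatments (0.17) was -0.041 with siRBM39-06 alone and 0.36 with siRBM39-08 alone. The number of MICAL events called after siSF3B1 (7 in DMSO, 7 in 4OHT) and siRBM39 (8 and 8) was 3, 3, 5 and 4 with higher coverage required, and 14, 16, 13 and 13 with 2 thin libraries allowed, which also gave 1 event for 4OHT against DMSO in place of 0. It was 13 after siSF3B1 in 4OHT both without the intron balance filter and without the minimum difference, 15 after siRBM39 in DMSO without the balance filter, and 5 after siRBM39 in 4OHT with siRBM39-08 alone. The siRBM39 numbers are MICAL1 events but for 1 in 4OHT, were fixed by the choice of MICAL1 and are a description on which nothing rests. Shares of all events called under the other filters, the one with 2 thin libraries among them, are not given. The numbers after siSF3B1 under those filters are therefore counts only, not set against a background. The replicate numbers did not pair the libraries (median r 0.014 over 264 pairs with the same number), and a fit with a replicate block changed no call (MICAL1 after siSF3B1 in DMSO, -0.60). Where the cause of a change is not in the setting itself, it was not tested.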
